A study of Phaseolus vulgaris with 12 samples.

Results

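Plants that lose water close their stomata and change which genes they transcribe, largely through the hormone abscisic acid and through pathways that do not need it. Products known from drought-stressed leaves of many plants include proteins that protect other proteins and membranes, enzymes that make compatible solutes, and lipid transfer proteins, which carry the building blocks of cutin and wax to the leaf surface. The 200 genes described here were the genes of dwarf bean (Phaseolus vulgaris) leaves whose transcripts rose most in relative terms when irrigation was withheld. They were chosen by that rise, so the rise itself is given as a description and not as a result.

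RNA was sequenced from trifoliate leaves of the genotype Dwarf messi in 4 groups. Seeds had been coated with a carrier polymer alone or with the polymer and 114 mM 6PP (6-pentyl-alpha-pyrone, a lactone that Trichoderma fungi release as a volatile), so the polymer was shared by all groups. Plants of each coating were watered throughout or had irrigation withheld for 16 days, and each of the 3 replicates per group was 1 pool of leaves from 5 plants. Plants stood in more than 1 growth chamber and the labels assign no pool to a chamber, so the chamber cannot be told apart from the water supply.

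A gene was eligible when its level was at least 5 TPM (a transcript abundance unit, exon reads scaled for exon length and library total) in each of the 3 drought polymer libraries. Of 27996 genes on 11 chromosomes, 13224 met this floor, and 13186 of them are not discussed by name in the study. These 13186 are called floor genes below. They were ranked by a score, the mean TPM of the 3 drought polymer libraries plus 0.1 over the mean TPM of the 6 well-watered libraries plus 0.1, and the highest 200 were taken. The study names 3 genes that would have ranked among them, PHAVU_007G082000g, PHAVU_006G188900g and PHAVU_011G085200g, and these were left out. No test of drought against watering is given for the 200 genes, because the score used those libraries. Over all genes tested in that contrast, 5.12% were called higher under drought.

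Drought 6PP plants are represented by 1 library, replicate 3, which the score did not use. The replicate 2 file held 2 tables on the same gene identifiers, 1 of which was identical to replicate 3 and was counted with it as 1 sample. The other differed from replicate 3 and was not used, since only files with a single table were taken. The replicate 1 file held 12 unlabelled tables on other gene identifiers. With 1 library there is no replicate check, so its values carry no p-value. Between 39974999 and 55648172 reads were counted on genes per library. Well-watered polymer replicate 1 stood apart, with 6988 genes at 0 reads against 4556 to 4909 in the other well-watered libraries, and 176 genes with 1 to 4 reads against 1298 to 1526. Of the 200 genes, 53 had 0 reads in that library, against 8 to 14 in the other well-watered libraries, and 32 had 0 reads there and in no other well-watered library. The sources used here do not say whether low counts had been removed from its table, so its zeros may stand for low counts, which touches the counts of 0 reads, the read ratios and the coating contrast below. Ranked without it, 195 of the 200 genes stayed among the highest 200.

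The leaf label was checked with 7 genes of photosynthesis, which included RBCS (the small subunit of Rubisco) and PSI-N (a photosystem I subunit). Their summed level was 46238 to 55138 TPM in the well-watered libraries, 7999 to 11899 TPM in the drought polymer libraries and 2905 TPM in the drought 6PP library, and none was at 0 reads. The 3 leghaemoglobin genes, markers of root nodules, had 0 reads in all 10 libraries, and the seed lectin gene DLEC2 did not exceed 0.37 TPM. This library also had the highest share of reads in introns, 8.0% against 5.28% to 6.08% in the drought polymer libraries, and 35 genes at 0 that had at least 20 reads in every other library. That count was 54 in well-watered polymer replicate 1, 1 in well-watered 6PP replicate 1 and 0 in the other libraries.

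The 200 genes made up 0.166% to 0.229% of all TPM in the 6 well-watered libraries. In the drought polymer libraries they made up 9.63%, 8.81% and 8.63%, and in the drought 6PP library 5.14%. TPM values are shares of a fixed total, so a rise in these genes lowers the share left for all others. In bulk leaf samples, more cells of a type and more RNA per cell cannot be told apart. The median of the 200 genes was 88.3, 68.7 and 60.6 TPM in the 3 drought polymer libraries, 46.6 TPM in the drought 6PP library, and 0.98 to 1.57 TPM in the well-watered libraries.

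**Figure D1:**
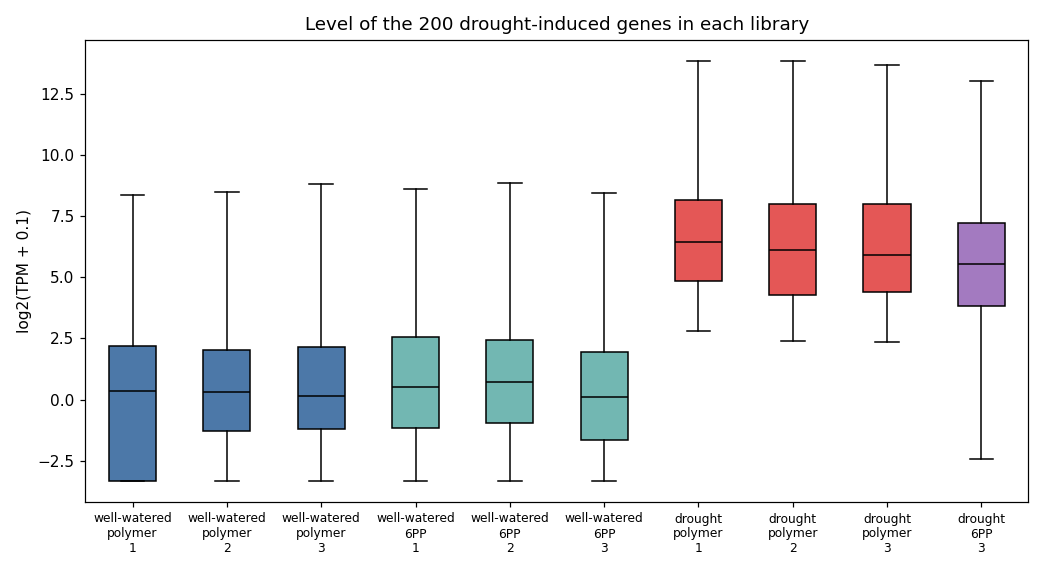
Level of the 200 genes in each of the 10 libraries, as log2(TPM + 0.1) on the vertical axis. Boxes span the quartiles, the line is the median and whiskers reach the lowest and highest gene, and the groups are coloured. The score fixed the gap between well-watered and drought polymer libraries. The floor of 5 TPM also limited how far down the drought polymer libraries could reach, and the drought 6PP library had no such limit. The comparison of their medians and lower ends is thus a description. The drought 6PP library, which the score did not use, had a median of 46.6 TPM, below the 60.6 to 88.3 TPM of the drought polymer libraries, and reached further down.

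The score ran from 4324 at rank 1 to 14.2 at rank 200, with a median of 39.6. It is not a fold change for genes that were nearly silent in watered leaves, since the added 0.1 TPM is then larger than the level itself. The mean well-watered level was below 0.1 TPM in 21 of the 200 genes, below 1 TPM in 93 and at least 50 TPM in 9. The limit at rank 200 did not fall at a gap. Just inside it, PHAVU_001G077000g, PHAVU_008G032900g and PHAVU_008G070000g had scores of 14.18, 14.17 and 14.16. Just outside it, PHAVU_005G090900g, PHAVU_002G010900g and PHAVU_001G075400g had scores of 13.86, 13.63 and 13.58.

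The files give no product name for most genes, and 152 of the 27996 have a symbol of their own. Among the 200 genes, 3 have one. Pha v 3.0201 (PHAVU_010G069100g) and Pha v 3.0101 (PHAVU_010G066500g) encode non-specific lipid transfer proteins, small secreted proteins that bind lipids and are known as bean allergens. MIPSV (PHAVU_002G261700g) encodes a myo-inositol phosphate synthase, the enzyme that starts myo-inositol synthesis from glucose 6-phosphate and so feeds the raffinose family sugars, which act as compatible solutes in many plants.

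Pha v 3.0201, of rank 52, was the most abundant of the 200 genes in the drought polymer libraries. It was listed at 147, 164 and 171 TPM in the well-watered polymer libraries and at 174, 210 and 147 TPM in the well-watered 6PP libraries. It reached 14925, 14788 and 13122 TPM in the drought polymer libraries and 2063 TPM in the drought 6PP library. The last value lay above every well-watered library and far below every drought polymer library, at 14.4% of their mean of 14278 ± 1004 TPM (SD, n = 3). The gene lies on chromosome 10 at 17454685 to 17456340 on the plus strand and has 2 exons.

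Pha v 3.0101, of rank 35, was much less abundant. It had 2.07, 2.69 and 2.12 TPM in the well-watered polymer libraries and 2.96, 3.28 and 1.28 TPM in the well-watered 6PP libraries. It had 492, 387 and 393 TPM in the drought polymer libraries and 253 TPM in the drought 6PP library. The drought 6PP value was again between the other groups, at 59.8% of the drought polymer mean of 424 ± 58.6 TPM (SD, n = 3). This gene also has 2 exons and lies on chromosome 10, at 15124292 to 15126129 on the minus strand.

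MIPSV, of rank 145, was already well expressed in watered leaves. Its levels were 135, 129 and 125 TPM in the polymer and 140, 144 and 90.7 TPM in the 6PP libraries. Under drought it had 2023, 2921 and 3018 TPM in the polymer libraries and 2236 TPM in the 6PP library. Here the drought 6PP library fell inside the drought polymer range, at 84.3% of the mean of 2654 ± 548 TPM (SD, n = 3). MIPSV has 10 exons on chromosome 2, at 42812520 to 42817020 on the plus strand.

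The other genes are known by their identifiers, and no role is given to them here. At rank 1, PHAVU_004G158800g, a gene with 1 exon of 780 bases on chromosome 4, had 869, 572 and 334 TPM in the drought polymer libraries and 49.8 TPM in the drought 6PP library. Its well-watered levels were 0, 0.036 and 0.0456 TPM with polymer and 0, 0.0496 and 0.0901 TPM with 6PP. The drought polymer replicates thus differed among themselves by more than 2-fold, while all of them were far above the other libraries. At rank 2, PHAVU_006G166000g, also with 1 exon, had 420, 355 and 433 TPM in the drought polymer libraries and 24.2 TPM in the drought 6PP library. Its 6 reads in all well-watered libraries together came from 6PP replicates 1 and 3, at 0.0952 and 0.0923 TPM. At rank 3, PHAVU_001G264400g, with 1 exon of 393 bases, had 1107, 1140 and 922 TPM with polymer and 130 TPM with 6PP under drought, and at most 0.591 TPM in a well-watered library. Of the drought polymer reads of ranks 1, 2 and 3, 27.1%, 15.3% and 64.6% were counted in introns, although each has 1 annotated exon. The reason is not known here, so their exon number and their TPM, scaled from exon reads, are uncertain.

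Ranks 4 to 6 followed the same order of groups. PHAVU_002G029900g had 345, 282 and 261 TPM in the drought polymer libraries, 11.2 TPM in the drought 6PP library and at most 0.0996 TPM with water. PHAVU_001G143100g had 745, 413 and 200 TPM, 31.5 TPM and at most 0.302 TPM in the same order, and PHAVU_003G162200g had 247, 343 and 302 TPM, 12.3 TPM and at most 0.226 TPM. In the first 6 genes the drought 6PP library was at 3.79% to 12.3% of the drought polymer mean.

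Rank 7 broke this order. PHAVU_011G106300g, with 1 exon on chromosome 11, had 176, 138 and 124 TPM in the drought polymer libraries and 523 TPM in the drought 6PP library, 3.58 times their mean. A single read was counted on it over the 6 well-watered libraries, against 6682 in the 3 drought polymer libraries. Relative to all gene reads the drought polymer level was 13838 times the well-watered level, with a 95% exact counting interval of 2483 to 546644, which covers counting error only. PHAVU_006G116000g, of rank 10, had 133, 96.3 and 90.7 TPM in the drought polymer libraries and 127 TPM in the drought 6PP library, inside their range. It too had 1 read in watered leaves, against 9610, a ratio of 19901 with an interval of 3571 to 786144. Without well-watered polymer replicate 1 the ratios were 11677 (2095 to 461298) for PHAVU_011G106300g and 16794 (3014 to 663405) for PHAVU_006G116000g.

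For the rest of the first 12 genes, the drought 6PP library had a lower level than any drought polymer library. PHAVU_001G205900g had 345, 278 and 234 TPM against 145 TPM, and PHAVU_003G096700g had 5193, 5033 and 5245 TPM against 836 TPM. PHAVU_005G044200g had 736, 684 and 688 TPM against 103 TPM, and PHAVU_007G069800g had 821, 677 and 646 TPM against 491 TPM. In all, the drought 6PP library was below the drought polymer range in 10 of the 12 genes, within it in 1 and above it in 1. Among the floor genes 66.1% were below. The drought 6PP library was above every well-watered library in all 12, against 32.4% of floor genes. The 12 genes were taken for a drought polymer mean far above the well-watered mean, so these counts are descriptions.

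**Figure D2:**
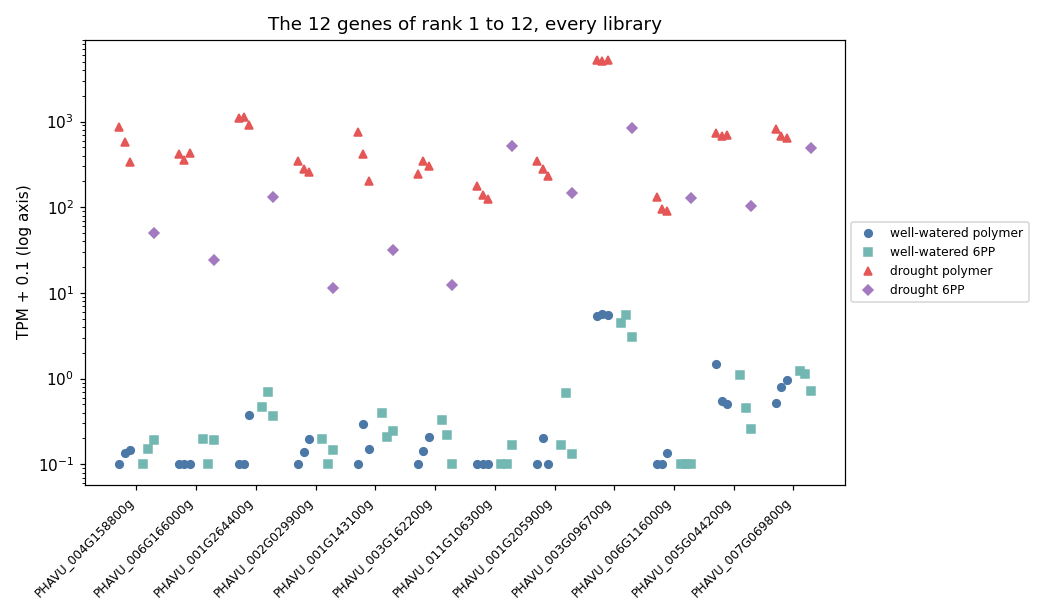
Level of the 12 highest-ranked genes, as TPM + 0.1 on a log axis, with 1 point per library and the groups told apart by colour and shape. Points at the bottom are libraries with 0 TPM. The drought 6PP library is below the drought polymer libraries in 10 of the 12 genes, within their range for PHAVU_006G116000g (127 TPM) and above it for PHAVU_011G106300g (523 TPM).

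In 2 of the 200 genes no read was counted in any of the 6 well-watered libraries, PHAVU_004G136000g and PHAVU_007G138300g. Against a floor of 3 reads over those 6 libraries, drought polymer leaves held at least 1368-fold higher levels of PHAVU_004G136000g and at least 701-fold higher levels of PHAVU_007G138300g. With the same floor over the 5 libraries other than well-watered polymer replicate 1, these limits were 1155-fold for PHAVU_004G136000g and 591-fold for PHAVU_007G138300g. Both were named after their values were seen, although the rule on low drought 6PP values also takes the latter. PHAVU_004G136000g had 29.2, 17.4 and 12.5 TPM in the drought polymer libraries and 1.1 TPM in the drought 6PP library, and PHAVU_007G138300g had 14.8, 16.7 and 16.3 TPM and, from 1 read, 0.0862 TPM.

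Many of the 200 genes were abundant under drought. The mean drought polymer level was 72.4 TPM at the median of the 200 genes, against 25.4 TPM at the median of the floor genes, with a range of 6.56 to 14278 TPM. It was at least 100 TPM in 89 of the 200 genes (44.5%, against 13.5% of floor genes) and at least 1000 TPM in 14. Of the 100 most abundant floor genes in drought polymer leaves, 16 were among the 200. The score contains the drought polymer level, so these counts are a description of what the rule took.

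The 5 most abundant genes carried 45.3% to 48.6% of the summed TPM of the 200 genes in the drought polymer libraries. Their share was 45.7% to 49.7% in the well-watered libraries and 24.9% in the drought 6PP library. The 5 genes were picked for their level in the drought polymer libraries, so these shares and their places against the drought polymer range are descriptions. Besides Pha v 3.0201 and PHAVU_003G096700g they were PHAVU_007G080400g, PHAVU_008G008200g and PHAVU_006G210400g. PHAVU_007G080400g, with 2 exons, had 334 to 468 TPM in watered leaves, 9710, 9218 and 9886 TPM in drought polymer leaves and 5815 TPM in the drought 6PP library. PHAVU_006G210400g had 179 to 288 TPM with water, then 6430, 5811 and 5848 TPM, and 3710 TPM. Both were near 60% of the drought polymer mean in the drought 6PP library (60.5% and 61.5%). PHAVU_008G008200g, with 1 exon, had 102 to 144 TPM in watered leaves and 7321, 7945 and 7612 TPM in drought polymer leaves but only 384 TPM in the drought 6PP library, 5.03% of the drought polymer mean. All 5 were below the drought polymer range. Of the 14 genes with a mean of at least 1000 TPM, 9 were below that range, 3 within it and 2 above it, where 66.1% of floor genes were below. The highest value of any of the 200 genes in the drought 6PP library was that of PHAVU_008G195600g, at 8399 TPM against a drought polymer mean of 4695 TPM, a gene named after its values were seen.

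The drought polymer replicates spread more widely for these genes than for the floor genes. The coefficient of variation over the 3 libraries had a median of 19.5% over the 200 genes and 8.09% over the floor genes. Over the next 200 genes of the ranking it was 14.4%. The score used the mean of these libraries, which 1 high replicate can raise, so the spread and the replicate counts are descriptions. Replicate 1 was the highest of the 3 libraries in 143 of the 200 genes (71.5%, against 48.2% of floor genes), and replicate 3 was the lowest in 110 (55.0%, against 27.4%). On the log2 scale each replicate differed from the mean of the other 2 by 0.29, -0.11 and -0.21 at the median of the 200 genes. RBCS_1 was lowest in replicate 1, with 5092, 6534 and 7356 TPM in replicates 1, 2 and 3, and its part in this order was not tested.

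The drought 6PP library itself took no part in the choice of genes. The libraries it is set against did, since the score took genes that were high in the drought polymer libraries and low in the well-watered ones, so the counts and medians below are descriptions. It lay above all 6 well-watered libraries in all but 2 of the 200 genes (99.0%), against 32.4% of the floor genes. It was at least 4 times the well-watered mean, with 0.1 TPM added to both, in 188 genes, against 5.05% of the floor genes. These 2 were PHAVU_001G142000g and PHAVU_007G173600g. PHAVU_001G142000g had 819, 649 and 606 TPM in the drought polymer libraries and 17.4 TPM in the drought 6PP library, below well-watered polymer replicate 2 at 19.6 TPM and above the other 5, at 6.23 to 11.5 TPM. PHAVU_007G173600g, named after its values were seen, had 157, 114 and 78.4 TPM with polymer and 3.92 TPM with 6PP under drought, below all well-watered libraries at 4.11 to 14.5 TPM. The median level over the well-watered mean was 4.72 on the log2 scale in the drought 6PP library and 5.57, 5.21 and 5.09 in the drought polymer libraries.

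Against the drought polymer libraries the same library was lower for most of these genes. It lay below all 3 of them in 119 of the 200 genes, within their range in 26 and above it in 55. Among the floor genes 66.1% lay below, 12.7% within and 21.2% above. On TPM the share below was thus no higher among the 200 genes (59.5%) than in general. The median difference was -0.74 on the log2(TPM + 0.1) scale over the 200 genes and -0.37 over the floor genes, a gap of -0.38. The 200 genes were chosen for a high drought polymer mean, which enters this difference, so nothing is read from this gap. With TMM-scaled CPM (gene read counts scaled to the library total and adjusted for composition) the medians were -0.40 and -0.04, so both medians depended on the scaling, with a gap of -0.36. On that scale 107 of the 200 genes (53.5%) were below and 74 (37%) above the drought polymer range, against 45.5% and 41.1% of the floor genes. There the share below was higher among the 200 genes than in general, so this comparison also depended on the scaling.

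The spread around that median was wide in both directions. The middle 50% of the 200 genes ran from -1.78 to 0.39 on the log2 scale, and that of the floor genes from -0.80 to 0.04. In the next 200 genes of the ranking it ran from -1.60 to 0.52, so a wide spread was not particular to the 200 genes. The drought 6PP level was at most 0.25 of the drought polymer mean in 43 genes (21.5%, against 4.28% of floor genes) and at most 0.1 in 25 (against 1.04%). It was at least 2 times that mean in 22 genes (11%, against 4.52%) and at least 4 times in 8 (against 1.13%). The replicate spread of the drought polymer libraries was also larger for the 200 genes, as given above, and its part in these counts was not tested. Nor was that of the lower leaf markers and higher intron share of the drought 6PP library. With TMM-scaled CPM the counts were 38 genes at most 0.25 of the mean (against 2.84%) and 35 at least 2 times it (against 7.45%).

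The genes furthest below had 0.0862 to 17.4 TPM in the drought 6PP library. PHAVU_007G180800g, with 4 exons on chromosome 7, had 46.6, 64.7 and 35.4 TPM in the drought polymer libraries and 0.365 TPM in the drought 6PP library, from 14 reads. PHAVU_009G103600g had 34.9, 30.3 and 23.3 TPM against 0.602 TPM, and PHAVU_005G156900g, with 9 exons, had 283, 257 and 383 TPM against 9.07 TPM. With PHAVU_007G138300g and PHAVU_001G142000g, described above, these were the 5 lowest log2 differences, from -6.72 to -5.07. The first 3 of them by size, PHAVU_007G180800g, PHAVU_007G138300g and PHAVU_009G103600g, had well-watered means of at most 0.08 TPM.

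The genes furthest above had moderate levels with polymer. PHAVU_007G071000g had 18.9, 6.78 and 5.06 TPM in the drought polymer libraries, among the widest replicate spreads of the 200 genes, and 129 TPM in the drought 6PP library, 12.6 times their mean. PHAVU_003G101100g had 102, 88.2 and 93.4 TPM against 817 TPM, 8.63 times the mean, with 3.19 to 5.17 TPM in watered leaves. PHAVU_011G105500g, of rank 14, had 408, 241 and 181 TPM against 1709 TPM. PHAVU_010G123400g had 87.7, 53.1 and 75.9 TPM against 430 TPM, and PHAVU_008G259700g had 30.7, 17.9 and 13.8 TPM against 121 TPM. All 5 were above every other library in the drought 6PP library, with log2 differences of 2.54 to 3.64.

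The difference from the drought polymer libraries was not the same along the ranking. Over ranks 1 to 50 the drought 6PP library had a median of 31.1% of the drought polymer mean, over ranks 51 to 100 of 41.7%, over ranks 101 to 150 of 81.2% and over ranks 151 to 200 of 107%. It was below the drought polymer range in 38, 38, 25 and 18 genes of these 4 sets and above it in 5, 7, 21 and 22. Across the 200 genes the log2 score and the log2 difference had a Pearson r of -0.41 and a Spearman rho of -0.40. This is a description, because genes are not independent replicates and the drought polymer mean enters both quantities. In the next 200 genes of the ranking the median was 81.6%, lower than in ranks 151 to 200. The 21 genes with a well-watered mean below 0.1 TPM had a median of 21.3%, and the 9 with at least 50 TPM had a median of 60.5%.

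**Figure D3:**
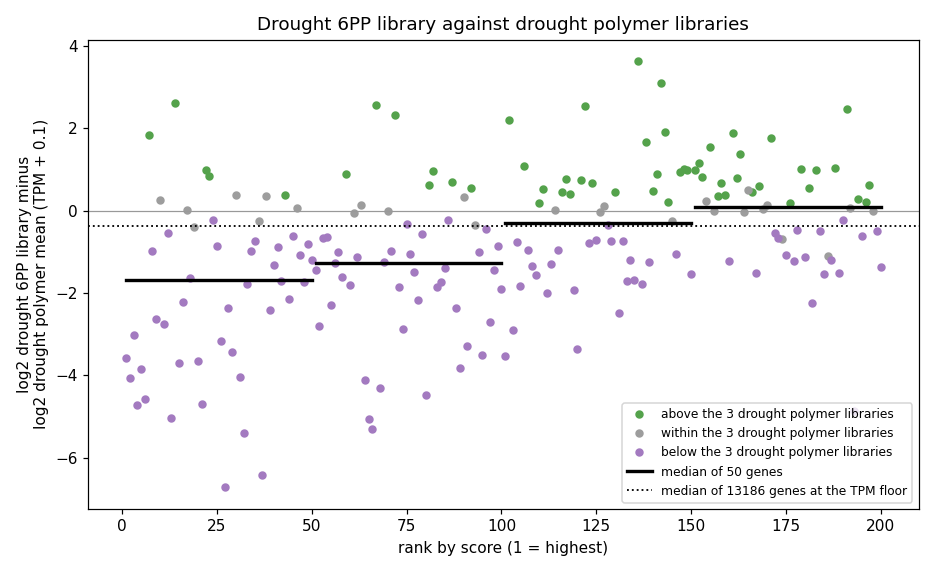
Log2 difference between the drought 6PP library and the drought polymer mean (TPM + 0.1, vertical axis) for each of the 200 genes by rank (horizontal axis, rank 1 has the highest score). Colours tell whether the library was below, within or above the 3 drought polymer libraries, thick lines are medians of 50 genes and the dotted line is the median of the 13186 floor genes. The medians run from -1.68 over ranks 1 to 50 to 0.10 over ranks 151 to 200, against -0.37 for the floor genes.

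The genes were short and had few exons. The median gene length was 1797 bases, against 3788 bases in floor genes and 2797 bases in all genes, and the median summed exon length was 1214, 1737 and 1507 bases. The median number of exons was 3, against 5 in floor genes and 4 in all genes. A single exon was annotated in 57 of the 200 genes (28.5%), against 12.3% of floor genes and 21.3% of all genes. At least 10 exons were annotated in 17 (8.5%), against 24% and 16.2%.

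**Figure D4:**
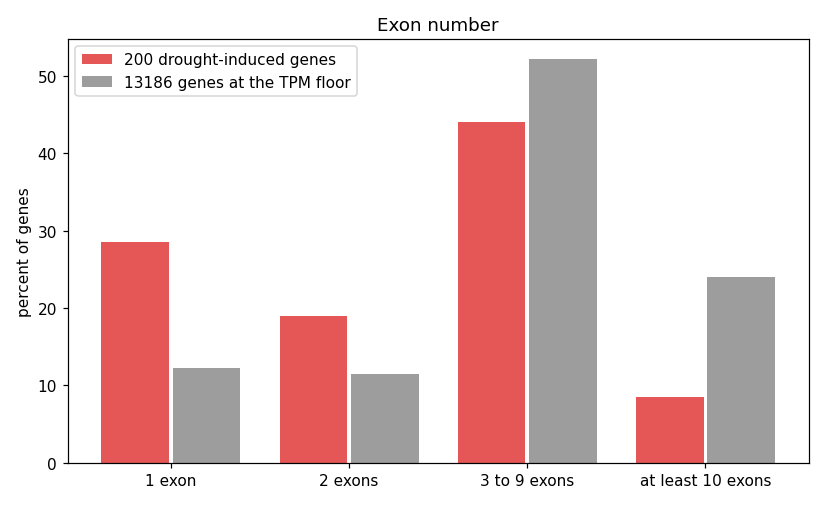
Percent of genes (vertical axis, from 0) in 4 classes of exon number, for the 200 genes and for the 13186 floor genes. Of the 200 genes, 28.5% have 1 exon and 8.5% at least 10, against 12.3% and 24% of the floor genes.

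Length and exon number also differed along the ranking. The median gene length was 1213 bases over ranks 1 to 50 and 2223 bases over ranks 151 to 200, and 38% and 22% of these genes had 1 exon. In the next 200 genes the values were 2382 bases and 22.5%. The difference between drought 6PP and drought polymer libraries had a median of -1.18 on the log2 scale in the 57 genes with 1 exon and of -0.55 in the 143 with more. Among the floor genes the order was the other way, -0.22 with 1 exon and -0.38 with more. The log2 difference and the exon number had a Spearman rho of 0.08 across the 200 genes.

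Long genes with many exons were exceptions. PHAVU_003G126300g had the most exons (24) and the greatest length (11546 bases), and had 0.965 to 1.71 TPM in watered leaves, then 136, 90.6 and 98.2 TPM with polymer and 202 TPM with 6PP under drought. PHAVU_011G093100g, with 20 exons, had 15.4, 9.4 and 9.77 TPM in the drought polymer libraries and 2.15 TPM in the drought 6PP library. PHAVU_010G040500g was second in length, at 11218 bases with 9 exons. It had 110, 76.8 and 60.3 TPM in the drought polymer libraries and 14.6 TPM in the drought 6PP library. Its well-watered levels split unevenly, at 7.23 TPM in replicate 1 of both coatings and 0.794 to 1.53 TPM in the other 4 libraries.

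In the 143 genes with more than 1 exon, reads in introns made up a median of 5.10% of gene reads in the drought polymer libraries, against 5.36% in floor genes with more than 1 exon. In the drought 6PP library the medians were 5.14% and 5.69%. Genes with 1 exon were left out of these medians, although some had reads counted in introns. In the drought polymer libraries the share was 43.5% in PHAVU_009G1165001g and 47.3% in PHAVU_007G138300g, but 0.223% in PHAVU_008G008200g and 1.65% in PHAVU_001G205900g. Where it is high, the annotated single exon is uncertain. Reads were placed uniquely to at least 95% in all but 4 of the 200 genes (2.00%, against 1.99% of floor genes). The 4 were PHAVU_008G133400g (43.3%), PHAVU_010G140900g (86.4%), PHAVU_010G141200g (88.1%) and PHAVU_006G127500g (94.1%), whose counts could be shared with a near-identical copy and are uncertain. PHAVU_006G127500g and PHAVU_002G146400g each overlap a gene on the opposite strand, and the sources used here do not say that strand was used in counting.

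The 200 genes lay on all 11 chromosomes. Chromosomes 3 and 9 held the most, 28 each. Per gene annotated, the share was highest on chromosome 10 (1.10%, 19 genes) and chromosome 9 (1.03%) and lowest on chromosome 4 (0.476%, 9 genes), against 0.714% over all chromosomes. Of the 200 genes, 21 lay directly next to another of them, in 10 runs. Among the next 200 genes of the ranking the number was 15. In 8 of the 11 adjacent pairs the drought 6PP library differed from the drought polymer mean in the same direction. Since 119 of the 200 genes were below the drought polymer range, nothing is read from this count. In 3 pairs, all among those 8, both identifiers carry the same gene number with an added digit, and whether they are separate genes is not known here.

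One such pair belongs to a run of 3 on the plus strand of chromosome 9. PHAVU_009G1165001g (17433306 to 17433667), PHAVU_009G1165000g (17433812 to 17434313) and PHAVU_009G116600g (17449427 to 17450654) have 1 exon each. They had 219, 183 and 256 TPM, 186, 122 and 253 TPM, and 414, 279 and 469 TPM in drought polymer replicates 1 to 3. Replicate 3 was the highest and replicate 2 the lowest in all 3 genes, unlike in most of the 200. In the drought 6PP library they had 92.4, 85.6 and 211 TPM, below the drought polymer range in each, at 42.1%, 45.8% and 54.4% of the mean.

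A run on chromosome 10, with at most 1 other gene between neighbours, went the other way. PHAVU_010G140900g (41269194 to 41270933, minus strand), PHAVU_010G141100g (41281979 to 41283875, minus strand) and PHAVU_010G141200g (41287836 to 41289755, plus strand) have 4 exons each. Their drought polymer levels were close between replicates, at 12.8, 12.9 and 12.9 TPM, 29.6, 26.8 and 28.1 TPM, and 20.9, 19.2 and 15.7 TPM. In the drought 6PP library they had 33.7, 55.7 and 25.8 TPM, above the drought polymer range in each, at 2.62, 1.98 and 1.38 times the mean. The first and last of these are among the genes with shared reads.

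Neighbours did not always lie on the same side. PHAVU_003G117100g and PHAVU_003G117200g lie 1136 bases apart on chromosome 3 and were named after their values were seen. PHAVU_003G117100g had 501, 337 and 266 TPM in the drought polymer libraries and 616 TPM in the drought 6PP library, and PHAVU_003G117200g had 250, 212 and 139 TPM and 38.9 TPM. Drought 6PP was thus above the range of 1 and below that of the other.

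The coating contrast in watered leaves was the only one with replicates that the choice of genes had not used, since the score took the mean of both coatings. In edgeR's quasi-likelihood test over all 22398 genes tested, 0 of the 200 genes met the 3 criteria of the study (log2 fold change of 0.6 or more in size, Benjamini-Hochberg FDR up to 0.01, Bonferroni-adjusted p up to 0.05), as did 0.0% of all genes tested. At an unadjusted p under 0.05, 29 of the 200 genes passed, 26 of them higher with 6PP, where 5.5% of all genes tested passed. Of the 200 genes, 154 passed the filter on low counts by their well-watered libraries alone, and the others entered through the drought libraries in which they had been chosen to be high. In a fit of the 6 well-watered libraries, 14 of those 154 passed (9.09%, against 4.1% of the 20963 genes tested), all 14 of them higher with 6PP. The smallest FDR of the 200 genes was 0.706. The Wald test of DESeq2 and the likelihood ratio test of edgeR also called 0 of them, and each called 4 of the 22398 genes tested (0.0179%). At an unadjusted p under 0.05 they gave 35 and 39 of the 200 genes, against 6.1% and 6.18% of all genes tested. In limma on log2(TPM + 0.1) and on log2(TPM + 1) the numbers were 16 (8.0%, against 6.66%) and 10 (5.0%, against 7.03%), so a larger share than in general was not seen with every test. The p-values measure the spread between pools of plants.

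The median log2 fold change of 6PP against polymer in watered leaves was 0.18 over the 200 genes and 0.01 over all genes tested. A positive value was found in 136 of the 200, against 52.0% of all genes tested. In the fit of the 6 well-watered libraries it was found in 106 of 154, against 52.6%. The libraries did not divide by coating. The median of the 200 genes stood at -0.32, -0.09 and -0.12 on the log2 scale against the well-watered mean in the polymer libraries, at 0.14 and 0.17 in 6PP replicates 1 and 2, and at -0.22 in 6PP replicate 3. The floor genes stood between -0.07 and 0.06 in the same libraries. Without 6PP replicate 3 the median was 0.32 and 47 genes were at an unadjusted p under 0.05 (4.6% of all genes tested), 44 of them higher with 6PP. Without 6PP replicate 1 the median was 0.11 with 20 such genes (5.08% of all genes tested), 18 of them higher. The direction was less one-sided without 6PP replicate 2, where 12 of 21 such genes were higher (8.2% of all genes tested), and without polymer replicate 1, where 16 of 25 were (4.1%). These fits held all groups and tested all 200 genes, also those that passed the filter only through the drought libraries. No library was left out in the fit of the well-watered libraries alone, so nothing is read from these counts. The summed TPM of the 200 genes was 1704, 1800 and 2007 with polymer and 2170, 2290 and 1662 with 6PP, so the groups overlapped. All 3 6PP libraries were above all 3 polymer libraries in 11 genes (5.50%, against 2.99% of floor genes) and below them in 3 (1.5%, against 9.44%).

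**Figure D5:**
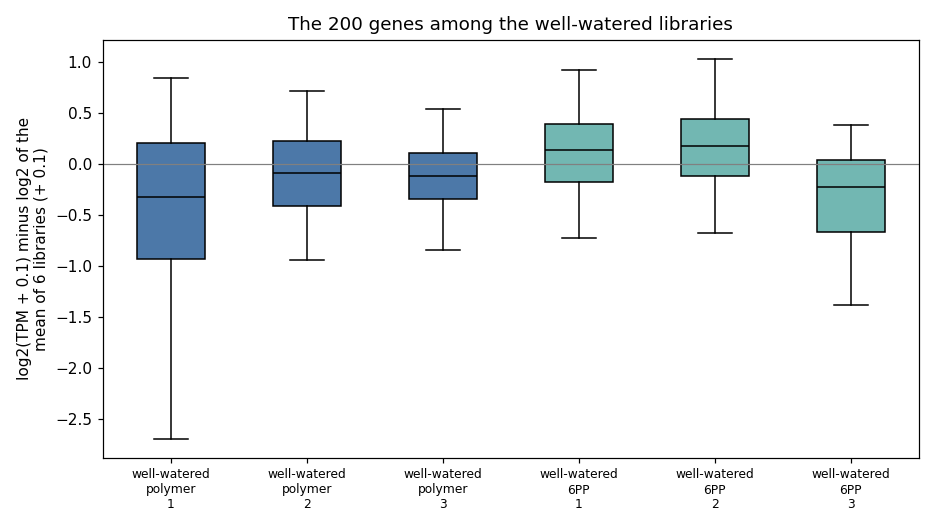
The 200 genes in the 6 well-watered libraries, as log2(TPM + 0.1) minus log2 of the mean of the 6 libraries (vertical axis). Boxes span the quartiles, the line is the median and whiskers reach the 5th and 95th percentile. Replicates 1 and 2 of 6PP have medians of 0.14 and 0.17, while 6PP replicate 3, at -0.22, lies with the polymer libraries, and polymer replicate 1 has the widest box.

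The 3 genes with the smallest p did not pass the correction. PHAVU_007G212600g had 1.22, 1.02 and 1.12 TPM with polymer and 2.08, 1.6 and 1.72 TPM with 6PP, a log2 fold change of 0.73 (SE 0.147) with an edgeR FDR of 0.706, and was higher in 3 of 3 6PP libraries. PHAVU_006G186600g had 8.28, 6.36 and 7.46 TPM against 12.4, 14.8 and 8.83 TPM, a log2 fold change of 0.74 (SE 0.186) with an edgeR FDR of 0.813. Over the alternatives its FDR ran from 0.0415 with DESeq2's Wald test, above the limit of 0.01, to 1 without polymer replicate 1. PHAVU_001G089700g had 0.397, 0.699 and 0.411 TPM against 0.231, 0.224 and 0.244 TPM, a log2 fold change of -1.15 (SE 0.295) with an edgeR FDR of 0.813. The groups did not overlap in any of the 3 genes, and the differences were small beside their levels of 44.7, 484 and 6.56 TPM in drought polymer leaves.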

How the data were processed

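RNA sequencing reads (150-base pairs) were trimmed, aligned and counted by the authors in CLC Genomics Workbench with the BAT93 bean genome, according to the methods of the study. The files name no assembly, and coordinates are quoted as listed. The authors deposited whole-number read counts per gene (total, unique, exon and intron reads, not normalized) and TPM values, which were scaled from exon reads. Of 12 samples, 10 libraries were used. The 12 tables of drought 6PP replicate 1 and 1 of the 2 tables of replicate 2 were not used.

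The members and lists were chosen with earlier results of these data known. TPM gave the score (0.1 added) and the descriptions. Total gene read counts were tested in R 4.3.3 with edgeR 4.0.16 (TMM, filterByExpr, quasi-likelihood test, 1 fit of 4 group means over 10 libraries), with p-values adjusted over 22398 genes. All 200 genes passed the filter, and 154 passed it on the 6 well-watered libraries alone. DESeq2 1.42.0 and limma 3.58.1 were alternatives. The thresholds were those of the study. Standard errors were derived from F. The planned fit had up to 12 libraries. Per library, 39974999 to 55648172 gene reads limited the precision, and intervals and floors cover counting error only.

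Genes named are ranks 1 to 12, the 5 most abundant under drought with polymer, the 5 highest and the 5 lowest in the drought 6PP library relative to drought polymer, those with a symbol, the 3 with the smallest p, runs of 3 neighbours, the 2 with most exons, the 2 longest and those next to the limit. Others were named after their values were seen. Of the PHAVU identifiers, 0 matched the reference gene table used here, so neither product classes nor promoter motifs were described.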

Additional observations from a re-analysis of the deposited data

Results flagged for a closer look

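In 2 of the genes named, the coating difference had opposite directions with and without water in every library, and the difference between the directions was not tested, since drought 6PP plants have 1 library. PHAVU_007G212600g was higher in all 3 well-watered 6PP libraries (1.6 to 2.08 TPM) than in the polymer libraries (1.02 to 1.22 TPM), while its log2 difference between the drought 6PP library (25.9 TPM) and the drought polymer mean (44.7 TPM) was -0.79. PHAVU_001G089700g was lower in all 3 well-watered 6PP libraries (0.224 to 0.244 TPM) than in the polymer libraries (0.397 to 0.699 TPM), while its log2 difference under drought was 0.22 (7.63 TPM against 6.19 to 6.84 TPM). Over the 200 genes, 6 were higher with 6PP in all watered libraries and below the drought polymer range (3.00%, against 1.80% of floor genes), and 1 had the reverse pattern (0.50%, against 1.53%). Among the 6, PHAVU_002G001700g, PHAVU_009G132900g and PHAVU_011G148500g had 0 TPM in well-watered polymer replicate 1, whose zeros may stand for low counts, so nothing is read from these shares.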

How the results depend on the processing

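Over 18 alternative rankings, 172 to 199 of the 200 genes stayed among the highest 200 (at least 191 with 1 library left out), and 149 were kept in all 18, of which 89 were of rank 1 to 100. None of the 200 genes was called between coatings in watered leaves under any of 18 alternatives (0 in each), whose smallest FDR over the 200 genes ran from 0.0415 with DESeq2 (PHAVU_006G186600g) to 1. DESeq2's Wald test and edgeR's ratio test each called 4 of all 22398 genes, and the other alternatives 0. The median log2 difference of the drought 6PP library was -0.40 with TMM-scaled CPM of total or unique reads, and ranged from -0.79 to -0.62 when 1 drought polymer library was left out. Genes within the drought polymer range then numbered 11 (without replicate 1) to 22. Genes starting within 50000 bases of another of the 200 numbered 36, and 48 of the highest 400 were adjacent. The other structure, neighbour and range counts stayed within 1.5 times. Same-numbered well-watered libraries of the 2 coatings had deviations that correlated by 0.09, 0.16 and -0.02. Differently numbered ones correlated by -0.15 to 0.03, so whether the numbers pair the libraries is not known here. With a replicate block over those 6 libraries 0 genes were called, and 10 of 154 were at an unadjusted p under 0.05 (6.49%, against 3.47% of all genes tested), against 14 without the block (9.09%, against 4.1%). Promoter alternatives were not run. Read ratios without polymer replicate 1 were added after the data were seen. Well-watered levels of 93 genes lay below 1 TPM, where counting error is large.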
